A study of Mus musculus with 37 samples.

Results

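Skeletal muscle-like cells made up 203 of the 8563 cells of a single reprogramming culture, a share of 2.37% with an exact binomial (Clopper-Pearson) 95% interval of 2.06% to 2.72%. They were the cells with at least 1 unique molecular identifier (UMI, a tag that counts 1 captured transcript once) in 4 or more of 9 genes: Myog, Mymk, Myh3, Mylpf, Tnnc2, Myl1, Tnnt3, Mybph and Ankrd2. The study infected mouse embryonic fibroblasts of the ICR background with retroviral vectors carrying a pool of 48 factors and profiled the cells by Drop-seq on day 7. All cells came from 1 biological replicate, split into 37 technical replicates, and no cells without the pool were analysed. Each cell could take up any number of the factors, 43 of which have a gene row and 5 of which are microRNAs. A transcript made from a vector and the same transcript from the cell's own gene cannot be told apart here, so a detected factor is not proof of delivery. Technical replicates 4 and 6 shared 59 cell barcodes, against at most 4 for any other pair, and were merged, which left 36 libraries in 3 series named by their labels (JD, PZ47-PZ48 and PZ58).

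Skeletal muscle forms when a myoblast commits to the lineage under basic helix-loop-helix factors of the MyoD family, leaves the cell cycle, switches on myogenin (Myog) and then the contractile genes, and fuses with its neighbours into a multinucleated myotube. MyoD binds E-boxes, short CANNTG motifs, together with E-proteins such as Tcf3, and cooperates with MEF2 factors at muscle promoters and enhancers. Embryonic and neonatal myosins, cardiac alpha-actin and the fetal acetylcholine receptor come first, and adult fast or slow isoforms replace them later. Forced MyoD expression is the classical way to turn fibroblasts into muscle.

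The number of detected rule genes per cell fell off steeply and then levelled. No rule gene was detected in 6042 cells, 1 in 1881, 2 in 373 and 3 in 64. Of the muscle-like cells, 40 had 4, 24 had 5, 20 had 6, 32 had 7, 48 had 8 and 39 had all 9. The 40 cells just inside the limit had a median of 12826 UMIs, and the 64 cells just outside it had a median of 11809. Total UMIs of the muscle-like cells ran between 1823 and 208623 with a median of 11009, against a median of 8508 in the 8360 other cells. Because the muscle-like cells were deeper, each was set against 3 other cells of the same library with the nearest total. This was done in the 28 libraries that held at least 3 muscle-like cells. It gave 189 muscle-like cells with a median of 10776 UMIs and 567 depth-matched cells with a median of 10822.

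Every one of the 36 libraries held at least 1 muscle-like cell. The share per library was 2.31 ± 1.03% (SD, n = 36 libraries), with a lowest of 0.5%, a median of 2.07% and a highest of 4.29%. By series, 80 of 3294 cells (2.43%) were muscle-like in JD, 95 of 3767 (2.52%) in PZ47-PZ48 and 28 of 1502 (1.86%) in PZ58. The exact 95% intervals of the 3 series overlap. A split of the libraries by how many counts the ribosomal gene Rps27a drew gave 39 of 2450 cells (1.59%) in the 10 libraries with high counts and 164 of 6113 (2.68%) in the 26 with low counts. All 6 libraries of PZ58 are among those with high counts, so for them the series and the level of Rps27a cannot be told apart. All intervals here cover counting error only.

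**Figure D1:**
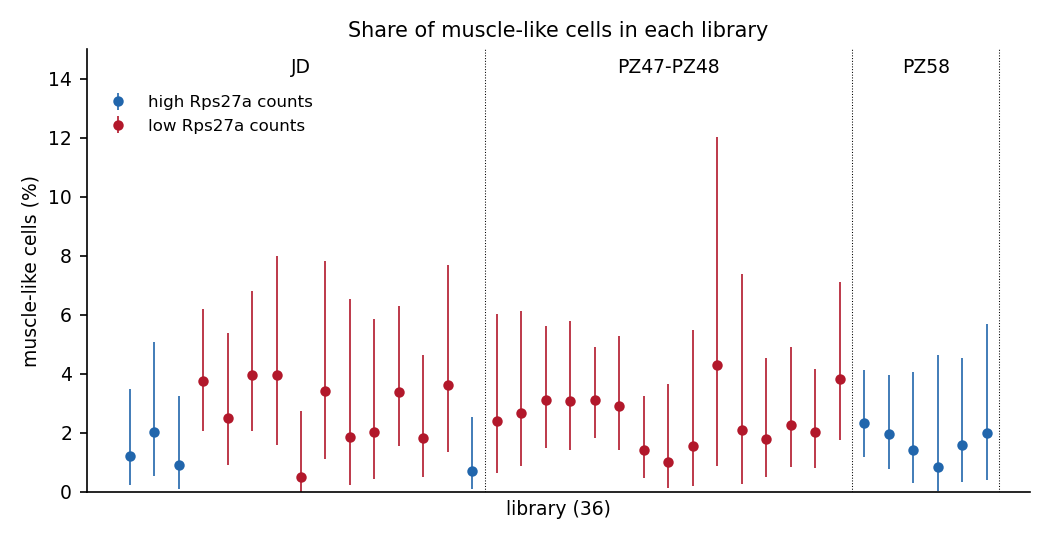
Share of cells that were muscle-like in each of the 36 libraries (percent, vertical axis), grouped by library series and coloured by the level of Rps27a counts, with exact 95% intervals. Shares lie between 0.5% and 4.29%, and the 3 series overlap.

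The 9 rule genes are given here as a description, since they chose the cells. Mylpf, the fast regulatory light chain, was the most often detected, in 94.6% of the 203 muscle-like cells and 11.3% of the 567 matched cells. Myog, the transcription factor of terminal differentiation, was detected in 70.9% of muscle-like and 1.41% of matched cells. Mymk (Myomaker), the membrane protein that drives myoblast fusion, was detected in 83.3% and 3.70%. The embryonic myosin heavy chain Myh3 was found in 60.6% of muscle-like and 2.29% of matched cells, and the stretch-responsive ankyrin repeat protein Ankrd2 in 44.8% and 2.29%. The others were Tnnt3 (fast troponin T, 87.7% and 4.59%), Myl1 (fast essential light chain, 86.2% and 4.41%), Mybph (a myosin binding protein, 74.9% and 1.23%) and Tnnc2 (fast troponin C, 66.5% and 3.53%). A type that should lack all of them was taken from 29 macrophage-like cells with a UMI each of Ctss, Lyz2 and Tyrobp. Muscle-like cells were left out of these 29 beforehand, and their median depth was 6761 UMIs. Mylpf was seen in 17.2% of them (exact 95% interval 5.85% to 35.8%) and Myl1 in 6.90% (0.846% to 22.8%). The other 7 were seen in none, with intervals up to 11.9%. All these intervals hold the matched shares, so 29 cells cannot separate the 2 groups. The low shares of Mylpf and Myl1 in matched cells are not read as expression. The source of those UMIs was not tested.

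Counts were summed per library and scaled to the total of each sum as CPM, the number of counts in 1e6. Myog had a lowest value of 174, a median of 963 and a highest of 2849 CPM in muscle-like cells, against 0, 0 and 13.0 CPM in matched cells. Mylpf had 962, 4365 and 13260 CPM in muscle-like cells, against 0, 8.46 and 33.3 CPM in matched cells. Neither pair of ranges overlaps. Among the rule genes, Tnnt3 was missing from the muscle-like cells of 1 of the 28 libraries, and the other 8 were present in all 28.

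**Figure D2:**
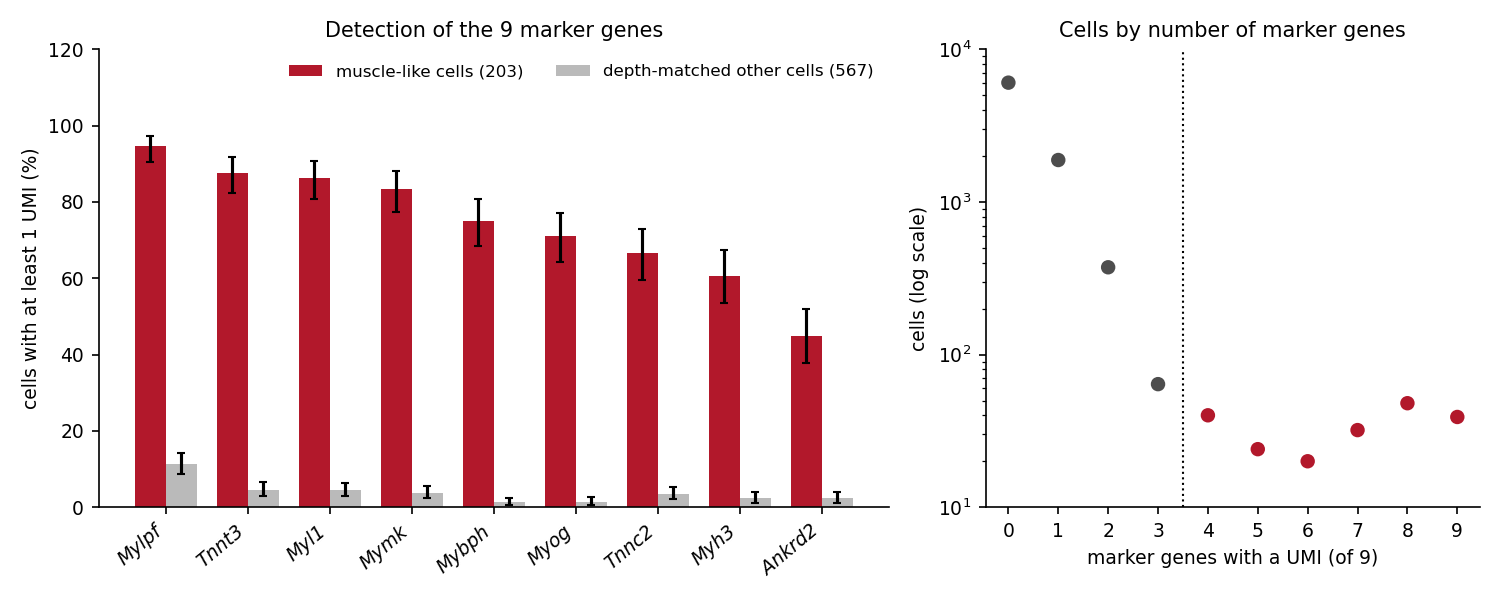
Percent of cells with at least 1 UMI of each of the 9 rule genes, with exact 95% intervals, in 203 muscle-like cells and 567 depth-matched cells (left), and the number of cells by how many rule genes were detected (right, log axis, dotted line at the limit). The muscle-like cells stand between 44.8% (Ankrd2) and 94.6% (Mylpf), the matched cells between 1.23% and 11.3%.

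All other genes were compared between muscle-like and matched cells on counts summed per library, with edgeR's quasi-likelihood test, library as a block and Benjamini-Hochberg adjustment over all genes tested. Of 13545 genes tested, 3895 passed an adjusted p of 0.05, which is 28.8%. Of all tested genes 13.7% were higher (1850) and 15.1% lower (2045), and the median log2 fold change over all genes was -0.08. Higher genes were thus 47.5% of the calls, and 35.9% with scaling factors taken from sums not thinned to equal totals, which moved that median to -0.18. Subsets of the libraries had fewer calls: 2409 without JD, 2488 without PZ47-PZ48 and 1113 in the libraries with high Rps27a counts alone. These subsets differ in number of libraries, series and Rps27a level, and the part of each was not tested. The libraries are technical splits of 1 culture, so these p-values measure only the spread between libraries. Cells picked for 9 muscle genes also carry the genes expressed with them, so the muscle lists below describe the chosen cells and do not test their identity. The lists were tallied in each direction beside these whole-transcriptome shares.

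Myogenic regulators and fusion genes outside the rule were higher almost throughout. Of 16 tested, 14 were higher, none was lower, and the median log2 fold change was 5.02 (5.10 with genes at 0 in the matched cells set to their bound). Chrna1 and Dok7 are on both this list and the receptor list below, here and in the later comparisons, so the 2 tallies overlap. Mymx (Myomixer), the micropeptide that completes fusion with Myomaker, had a lowest value of 0, a median of 233 and a highest of 1069 CPM in muscle-like cells, against 0, 0 and 13.0 CPM in matched cells. Its log2 fold change was 7.62 ± 0.25 (SE; edgeR quasi-likelihood, adjusted p = 4.5e-30), and it was higher in 27 of 28 libraries. Hes6, an inhibitory partner of Hes1 that favours differentiation, had 189, 577 and 2281 CPM in muscle-like cells, against 0, 33.6 and 74.7 CPM in matched cells. Its ranges did not overlap, and the log2 fold change was 4.11 ± 0.20. Cdh15 (M-cadherin, 5.48), the sarcomere chaperone adaptor Klhl41 (7.01), the thin filament leiomodin Lmod3 (7.79) and the muscle histone methyltransferase Smyd1 (6.50) were also higher. Six4 (0.47) and Tmem8b (0.25) did not pass.

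Marker genes of muscle stem cells were nearly absent. Pax7, which marks satellite cells, had no count in 203 muscle-like cells and none in the matched cells, and the exact 95% interval of 0 of 203 cells reaches up to 1.80% of cells with a UMI. Myf5 had no count in muscle-like cells and 1 in matched cells. Myf6, the late MyoD family member, had 3 counts in muscle-like cells and none in matched cells. Pax3 had 3 counts in muscle-like cells and 15 in matched cells. None of these 4 genes reached the minimum of 20 counts for a test, so no difference was detectable at this depth.

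Transcripts for the fetal form of the muscle acetylcholine receptor were present, and the receptor protein was not measured. Its alpha subunit gene Chrna1 (chr2:73563215-73580338, mm10, minus strand) had a lowest value of 14.0, a median of 482 and a highest of 1552 CPM in muscle-like cells, against 0, 0 and 39.1 CPM in matched cells. The gamma subunit gene Chrng (chr1:87204657-87212694, plus strand), which is specific to the fetal receptor, had 38.5, 168.8 and 502 CPM in muscle-like cells, against 0, 0 and 4.94 CPM in matched cells. Chrna1 was higher in all 28 libraries with a log2 fold change of 6.61 ± 0.23, and Chrng in all 28 with 7.30 ± 0.24 (edgeR quasi-likelihood, adjusted p = 1.0e-28 and 7.5e-30). The ranges of Chrng did not overlap, while those of Chrna1 did at the low end. Chrne, the subunit that replaces gamma in adult muscle, had no count in muscle-like cells and 2 in matched cells.

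Of the 9 tested genes of the receptor and its clustering machinery 8 were higher, none was lower, and the median log2 fold change was 5.12, also with genes at 0 in the matched cells set to their bound. Chrnb1 (beta subunit, 3.20), Rapsn (rapsyn, which anchors the receptor, 4.61) and Lrp4 (the agrin receptor, 2.87) were among them. Chrnd (delta subunit) had 74 counts in the muscle-like cells and 1 in the matched cells, a ratio of 210 with an exact 95% counting interval of 36.6 to 8409. The receptor tyrosine kinase gene Musk had 84 counts in muscle-like cells and 0 in matched cells, at least 79.5-fold higher against a floor of 3 counts over the matched group. Its activator Dok7 had 70 and 0, at least 66.2-fold higher. Agrn, which codes for the nerve-derived organiser agrin, did not pass (-0.27, adjusted p = 0.36).

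Promoter sequences are shown for Mylpf, Klhl41, Chrna1 and Chrng, because they hold the E-box CAGCTG, the form of CANNTG associated with MyoD, in genes of the contractile, chaperone and synaptic groups. They are RefSeq sequences of GRCm38.p6, 250 bases before to 50 after the gene start, 5′ to 3′ on the gene's strand. Capitals mark CAGCTG, searched on both strands (it reads the same on each), and in Klhl41 also a match to the MEF2 consensus. The windows are chr7:127211358-127211657 (plus), chr2:69669870-69670169 (plus), chr2:73580289-73580588 (minus) and chr1:87205561-87205860 (plus).
Mylpf: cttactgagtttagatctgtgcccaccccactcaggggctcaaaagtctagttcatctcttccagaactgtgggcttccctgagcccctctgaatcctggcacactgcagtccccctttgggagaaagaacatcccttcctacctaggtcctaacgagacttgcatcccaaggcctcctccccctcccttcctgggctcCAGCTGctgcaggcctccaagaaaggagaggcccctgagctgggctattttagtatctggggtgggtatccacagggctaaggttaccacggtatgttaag
Klhl41: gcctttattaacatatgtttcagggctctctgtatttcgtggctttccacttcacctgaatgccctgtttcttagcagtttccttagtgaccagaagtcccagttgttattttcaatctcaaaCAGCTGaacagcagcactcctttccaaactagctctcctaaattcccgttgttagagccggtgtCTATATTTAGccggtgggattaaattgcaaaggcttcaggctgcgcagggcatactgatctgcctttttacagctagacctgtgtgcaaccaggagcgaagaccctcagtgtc
Chrna1: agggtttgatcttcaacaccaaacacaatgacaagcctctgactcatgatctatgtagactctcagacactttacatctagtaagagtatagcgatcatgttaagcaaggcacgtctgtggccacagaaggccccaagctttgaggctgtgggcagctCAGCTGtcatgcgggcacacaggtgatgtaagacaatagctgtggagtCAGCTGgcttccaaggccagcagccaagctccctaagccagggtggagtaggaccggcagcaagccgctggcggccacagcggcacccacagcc
Chrng: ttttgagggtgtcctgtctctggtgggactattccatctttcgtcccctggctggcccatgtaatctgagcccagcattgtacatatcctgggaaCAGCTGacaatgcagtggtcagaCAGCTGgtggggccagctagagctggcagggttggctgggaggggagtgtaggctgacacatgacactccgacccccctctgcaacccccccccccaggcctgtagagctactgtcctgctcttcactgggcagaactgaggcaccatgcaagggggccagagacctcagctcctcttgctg

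CAGCTG begins 51 bases before the start in Mylpf and 127 bases before it in Klhl41, where the MEF2 match begins at 63. Chrna1 holds it at 92 and 44 bases before the start, and Chrng at 155 and 132. Of 54 genes of the rule and of the regulator, fast sarcomere and receptor lists, 37 had a RefSeq promoter, with 44 promoters between them. CAGCTG was in 16 of these 44 (36.4%), against 16.3% of all 32851 promoters of the same length, and at least 2 copies were in 1.90% of all. The windows of Tnni1 overlap and hold the same CAGCTG site, so it is counted more than once. Promoters on a chromosome left out here were not among the 44 but stayed among the 32851. The wider CANNTG, which includes CAGCTG, was in 75.0% of the 44 and 72.3% of all. The MEF2 consensus was in 5 of the 44 (11.4%) and 3.19% of all, and Klhl41 and Myh4 held both it and CAGCTG. A match describes these letters and is not evidence of binding.

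The list of fast and embryonic contractile genes of skeletal muscle was higher by the largest median of the lists. It also holds slow genes, among them Tnni1, Tnnt1 and Mybpc1, which are part of its sums. Of 16 tested outside the rule, 15 were higher and 1 was lower, with a median log2 fold change of 6.12. Their summed level was 19534 ± 12070 CPM in muscle-like cells and 453 ± 232 CPM in matched cells (SD, n = 28 libraries each). Skeletal alpha-actin, Acta1, had a lowest value of 933, a median of 3859 and a highest of 15121 CPM in muscle-like cells, against 0, 50.2 and 408 CPM in matched cells. Its ranges did not overlap, and the log2 fold change was 6.12 ± 0.31. The slow troponins Tnni1 (8.07) and Tnnt1 (7.51), the fast troponin Tnni2 (7.06), the atrial and embryonic light chain Myl4 (7.27), and slow myosin binding protein Mybpc1 (7.02) rose with it.

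Myosin heavy chains of several stages were detected in the same population. The perinatal chain Myh8 averaged 446 ± 518 CPM in muscle-like and 2.94 ± 5.91 CPM in matched cells (SD, n = 28 libraries each; log2 fold change 6.67). Slow Myh7, which shares exons with the antisense gene Mhrt, averaged 560 ± 648 CPM in muscle-like and 0.777 ± 2.40 CPM in matched cells (8.28). The adult fast chains Myh1 (5.03) and Myh2 (3.86) were also higher, and so was Myh4, which had 156 counts in muscle-like cells and 1 in matched cells. Tpm3, a tropomyosin with non-muscle isoforms, was the 1 lower gene of this list (-0.60).

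Sarcomere genes that skeletal muscle shares with the heart were higher as well. Of 30 tested, 28 were higher and none was lower, with a median log2 fold change of 4.39. Cardiac alpha-actin, Actc1 (chr2:114047282-114053548), which fetal skeletal muscle also makes, had a lowest value of 344, a median of 4758 and a highest of 10741 CPM in muscle-like cells, against 0, 4.41 and 26.5 CPM in matched cells. The ranges did not overlap, and its log2 fold change of 8.92 ± 0.27 was the highest of the genes tested that had the same sign in all 3 series. The gene of the giant spring protein titin, Ttn, averaged 2344 ± 1359 CPM in muscle-like and 15.7 ± 27.5 CPM in matched cells (SD, n = 28 libraries each; 7.59). The Z-disc genes Actn2 (8.04) and Des (desmin, 3.83) and the thin filament ruler Neb (nebulin, 7.24) were higher in all 28 libraries. Tcap (telethonin) had 416 counts in muscle-like cells and none in matched cells, which makes it at least 394-fold higher against the same floor. Tpm1 (0.04) and Nebl (0.52) did not pass.

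Genes often used as cardiac markers were higher in part, and the rest did not pass. Slow Myh7 (8.28), given above, is on this list and was higher, as was Smpx (5.29). Of 16 tested, 10 were higher and none was lower, with a median of 3.11. Myh6, the alpha cardiac myosin, was detected in 30.0% of muscle-like and 0.353% of matched cells, with a count ratio of 383 (105 to 3181), and sarcolipin, Sln, had 272 counts in muscle-like and 1 in matched cells, a ratio of 772 (137 to 30611). Mybpc3 (cardiac myosin binding protein C, 3.43), Myl2 (ventricular light chain, 3.33) and Ankrd1 (2.88) were among the higher ones. The natriuretic peptide genes Nppa (-0.03, adjusted p = 1.0) and Nppb (-0.13, adjusted p = 0.93) did not pass, and neither did cardiac troponin I, Tnni3 (1.30, adjusted p = 0.078). Nppa was detected in 4.93% of muscle-like and 2.82% of matched cells. Myl7, the atrial light chain, was detected in 4.93% and 1.06%.

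Calcium handling and energy genes of muscle followed. Of 18 tested calcium handling genes 16 were higher and none was lower (median 4.37), and of 19 energy genes 15 were higher and none was lower (median 3.06). The calcium store buffer Casq2 had a lowest value of 169.4, a median of 818 and a highest of 1464 CPM in muscle-like cells, against 0, 2.78 and 58.3 CPM in matched cells. The ranges did not overlap (log2 fold change 6.32 ± 0.24). Ryr1, the release channel of skeletal muscle (6.25), Cacna1s, its voltage sensor (6.20), Trdn (triadin, 6.76) and Atp2a1, the fast calcium pump (5.77), rose. Among the energy genes, Ckm (muscle creatine kinase) had 182 counts in muscle-like cells and 1 in matched cells, a ratio of 517 (91.6 to 20519). Mb (myoglobin, 6.68, with exons shared with Apol6) and Eno3 (muscle enolase, 3.74) rose, while Ldha (-0.05) and Ldhb (0.16) did not pass. All 7 tested protein genes of the mitochondrial genome were higher, with a median log2 fold change of 0.76. Their list summed to 8644 ± 2933 CPM in muscle-like and 5103 ± 1010 CPM in matched cells (SD, n = 28 libraries each).

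**Figure D3:**
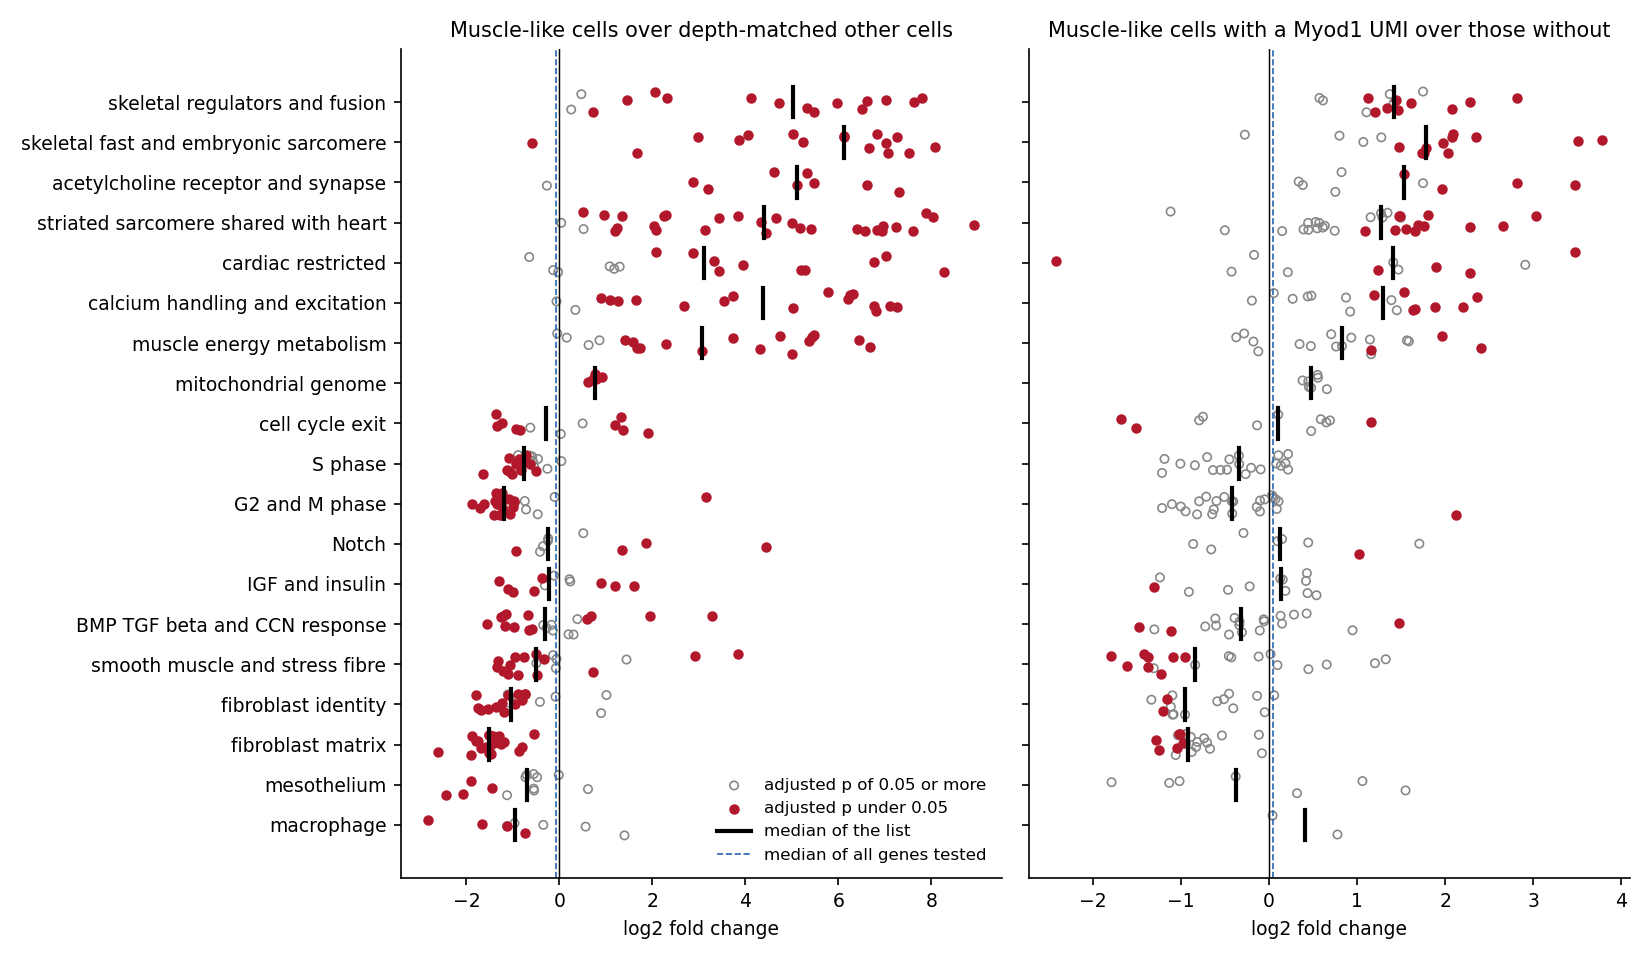
Log2 fold change of each tested gene in 19 gene lists, for muscle-like over depth-matched cells (left) and for muscle-like cells with a Myod1 UMI over those without (right). Filled points passed an adjusted p of 0.05, black bars are list medians, and the dashed line is the median of all genes. On the left the medians of the lists of muscle genes lie between 3.06 and 6.12, and that of fibroblast matrix at -1.51.

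Cell cycle genes were lower. Of 24 tested G2 and M phase genes 19 were lower, with a median log2 fold change of -1.20, and of 20 S phase genes 12 were lower, with a median of -0.75. The exception in G2 and M phase was Ube2c (3.15), which shares exons with the rule gene Tnnc2, so its reads may come from Tnnc2 and nothing is drawn from it. No S phase gene was higher. Top2a, the mitotic topoisomerase, had a lowest value of 0, a median of 23.6 and a highest of 333 CPM in muscle-like cells, against 27.2, 255 and 536 CPM in matched cells. The ranges overlapped, and Top2a was lower in 27 of 28 libraries (-1.88 ± 0.27; edgeR quasi-likelihood, adjusted p = 2.8e-07). The proliferation marker Mki67 (-1.72) and the replication genes Mcm6 (-1.12) and Pola1 (-1.65) fell.

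Genes of cell cycle exit moved in both directions, with 4 of 12 higher and 5 lower. Ccnd3, the D-type cyclin that differentiating muscle keeps, averaged 525 ± 266 CPM in muscle-like and 195 ± 49.3 CPM in matched cells (SD, n = 28 libraries each), a log2 fold change of 1.33 ± 0.14. Rb1, the retinoblastoma gene, averaged 132 ± 96.7 CPM in muscle-like and 29.3 ± 13.7 CPM in matched cells (1.91 ± 0.20, higher in 28 of 28 libraries). Cdkn1c (p57, 1.37) and Cdkn1a (p21, 1.19) were higher, and Cdkn1a is itself in the pool. The other D-type cyclins, Ccnd1 (-1.37) and Ccnd2 (-1.23), were lower, as were the inhibitor genes Cdkn2a (-0.85), Cdkn2b (-0.94) and Cdkn2c (-1.34). Cdkn1b (0.03) did not pass.

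The fibroblast programme was lower but present. All 20 matrix genes tested were lower, with a median of -1.51, and of 20 fibroblast identity genes 13 were lower and none was higher, with a median of -1.03. Type I collagen, Col1a1 (chr11:94936224-94953042), had a lowest value of 169.3, a median of 878 and a highest of 5119 CPM in muscle-like cells, against 2803, 3862 and 7201 CPM in matched cells. The ranges overlapped, and Col1a1 was lower in 28 of 28 libraries (-1.89 ± 0.21). It was still detected in 90.6% of muscle-like cells, against 100% of matched cells. The secreted glycoprotein Fstl1 had 160, 493 and 2126 CPM in muscle-like cells, against 1984, 2179 and 2695 CPM in matched cells (-1.69 ± 0.18). The surface marker Thy1 (-1.74), the platelet-derived growth factor receptor Pdgfrb (-1.70), and the mesenchymal factors Prrx1 (-1.35) and Twist2 (-1.54) fell. Elastin, Eln (-2.62), was among the 10 lowest of the called genes that had the same sign in all 3 series.

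Smooth muscle and stress fibre genes were split, with 11 of 19 lower and 3 higher. The higher ones were Des, Synpo2 (2.91) and Smtn (0.72), of which the first is an intermediate filament gene of all muscle types and Synpo2 codes for a Z-disc protein. Tagln (-0.96), Cald1 (-1.20), Cnn1 (-0.75), Tpm4 (-1.32) and Flna (-1.34) were lower. Acta2, smooth muscle alpha-actin, averaged 3991 ± 3321 CPM in muscle-like and 4989 ± 1727 CPM in matched cells (-0.51 ± 0.15), and Myh11 (-0.50, adjusted p = 0.30) did not pass.

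Several signalling genes known in myogenesis were higher. In the Notch list 3 of 9 tested genes were higher and 1 lower. The ligand gene Dll1 had 54 counts in muscle-like cells and 2 in matched cells, a ratio of 76.7 (20.2 to 649), and was higher in 20 of 28 libraries. Heyl rose (1.86), Hey1, a pool factor, rose (1.34), and the ligand Jag1 fell (-0.93). In the insulin-like growth factor list 3 of 12 genes were higher and 5 lower. Igf2 averaged 4561 ± 1940 CPM in muscle-like and 2490 ± 853 CPM in matched cells (0.90), its imprinted neighbour H19 averaged 7910 ± 4535 and 3294 ± 1430 CPM (1.19), and Igfbp5, a binding protein of myoblasts, rose (1.61), while Igf1 fell (-1.30). Mstn (myostatin, the inhibitor of muscle growth) had 35 counts in muscle-like and 5 in matched cells (3.28 ± 0.51), and the BMP antagonist Nog rose (1.96). In that list of BMP, TGF-beta and CCN genes 4 of 20 were higher and 9 lower, among them the CCN genes Ccn1 (-0.98) and Ccn2 (-1.15) and the BMP antagonist Grem1 (-1.56). Erbb3, a neuregulin receptor, was the 1 gene of the 5 tested glial ones that was higher (3.69).

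Genes of mesothelium, macrophages and endothelium were compared as well, apart from the cardiac, smooth muscle and fibroblast genes given above. Among 13 tested mesothelial genes none was higher and 4 were lower, among 9 macrophage genes none was higher and 4 were lower, and among 5 endothelial genes none passed. The macrophage gene Ctss was detected in 1 of 203 muscle-like cells and 7 of 567 matched cells, and endothelial Pecam1 in no muscle-like and 4 matched cells. Msln, a mesothelial marker, was detected in 22.2% of muscle-like and 11.5% of matched cells but did not pass (0.62, adjusted p = 0.33). Upk3b, 1 of the 4 lower mesothelial genes (-2.07), had 13 counts in the 189 muscle-like cells tested and 204 in matched cells. Over all 203 muscle-like cells it had 147 counts, most of them from libraries left out of the test, so its lower call does not cover those cells. Upk3b was detected in 13 of 203 muscle-like cells and 20 of 567 matched cells. The interferon-induced genes Ifit3 (-2.66) and Ifit1 (-2.64) had the lowest fold changes among genes with the same sign in all 3 series. Ifit1 had 13 counts in muscle-like cells and 296 in matched cells, and Ifit3 had 8 and 264.

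Factors of the pool were not used to choose the cells. Myod1 (chr7:46376474-46379099) was detected in 113 of 203 muscle-like cells (55.7%) and 2.82% of matched cells, and in 1 of the 29 macrophage-like cells. Per library it had a lowest value of 10.8, a median of 147 and a highest of 799 CPM in muscle-like cells, against 0, 0 and 26.1 CPM in matched cells. The ranges overlapped at the low end, Myod1 was higher in 28 of 28 libraries, and its log2 fold change was 5.16 ± 0.26. Mef2c (chr13:83504034-83667080) was detected in 82.3% of the 203 muscle-like cells and 25.9% of matched cells. It had 76.9, 891 and 3836 CPM in muscle-like cells, against 11.4, 29.7 and 119 CPM in matched cells, higher in 27 of 28 libraries (4.73 ± 0.22). Mef2c was also detected in 22 of the 29 macrophage-like cells (75.9%), a cell type that expresses the gene itself.

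The other MEF2 genes were higher by less. Mef2a averaged 502 ± 297 CPM in muscle-like and 146 ± 41.1 CPM in matched cells (SD, n = 28 libraries each; 1.64 ± 0.15), while Mef2d (1.10) and Mef2b (1.09) differed by similar amounts. The chromatin remodelling subunit Smarcd3 (1.04), Mesp1 (1.66), Isl1 (1.46, but -0.27 when 7 rule genes were required), Tbx3 (0.93) and Gata6 (0.88) rose too. Of the 28 libraries, Smarcd3 was higher in 25 and lower in 3. The same counts were 17 and 10 for Gata6, 16 and 10 for Tbx3, 15 and 7 for Mesp1, and 14 and 6 for Isl1. The rise of Tbx3 was absent from JD (-0.04), against 1.53 (PZ58) and 1.62 (PZ47-PZ48). Gata6 stood at 0.26 (PZ58), 0.39 (PZ47-PZ48) and 1.74 (JD). The lower factors were Hand2 (-1.34 ± 0.42; edgeR quasi-likelihood, adjusted p = 0.014), Lbh (-0.75) and Hdac1 (-0.61). Hand2 was detected in 7.39% of muscle-like and 13.6% of matched cells. Tcf3, the E-protein in the pool, did not pass (-0.25, adjusted p = 0.31). Muscle-like cells carried 12.3 ± 2.58 detected factors, against 10.8 ± 2.24 in matched cells (SD over 28 libraries each; difference 1.54, higher in 24 of 28). The two-sided sign-flip permutation p was 2e-05, the smallest that the 100000 resamples can give. Without Myod1 and Mef2c the means were 10.9 and 10.5, a difference of 0.445 that did not pass (permutation p = 0.0821). The difference was 0.977 when 2 UMIs were needed to call a factor (permutation p = 0.00048) and 0.646 when 5 rule genes were required (permutation p = 0.0119), both past the threshold. Genes detected per cell were 4296 ± 974 in muscle-like and 4406 ± 870 in matched cells, lower in most libraries (permutation p = 0.00208).

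Cells with both Myod1 and Mef2c detected were muscle-like far more often than cells with either alone. Vector and own-gene transcripts cannot be told apart, so a UMI of either factor may belong to the muscle state itself. The classes are thus not independent of the choice of cells, and which came first was not tested. The share was 108 of 198 cells with both (54.5%, exact 95% interval 47.3% to 61.6%). It was 5 of 154 cells with Myod1 alone (3.25%, 1.06% to 7.41%), 59 of 2032 with Mef2c alone (2.90%, 2.22% to 3.73%) and 31 of 6179 with neither (0.502%, 0.341% to 0.711%). Within libraries with at least 3 cells of each class, the share was higher with both factors than with Mef2c alone by 52.1 ± 21.7 percentage points (SD, 32 libraries, higher in 31). It was higher with both than with Myod1 alone by 53.2 ± 24.1 points (22 libraries, higher in 21). The sign-flip permutation test gave an adjusted p of 3e-05 for each, over 3 differences. Myod1 alone minus Mef2c alone was -1.24 ± 5.08 points over 24 libraries and did not pass (permutation p = 0.256). With cells thinned to 3000 and to 8000 UMIs it was -8.34 and -3.25 points (adjusted permutation p = 0.00293 and 0.00586), and with 5000 UMIs 0.558 points (adjusted permutation p = 0.867). The classes differed in depth, with median totals of 16372 UMIs for both, 10787 for Myod1 alone, 12802 for Mef2c alone and 7533 for neither. After every cell was thinned to 5000 UMIs, which left out shallower cells, the shares were 65.1%, 7.22%, 5.79% and 0.305% in the same order.

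Cells with both factors had the highest share in each of the 3 series, and cells with neither the lowest. Among cells with both factors JD had a share of 55.1%, PZ47-PZ48 of 58.5% and PZ58 of 40.7%. With neither factor the 3 shares were 0.464%, 0.547% and 0.469%. The order of the classes between them differed: Myod1 alone and Mef2c alone had 4.35% and 2.22% in JD, 1.54% and 3.53% in PZ47-PZ48, and 5.0% and 2.82% in PZ58, from 3, 1 and 1 muscle-like cells with Myod1 alone. The share also climbed with the number of UMIs of each factor in a cell. With 0, 1, 2, 3 and at least 4 Myod1 UMIs it was 1.10%, 17.1%, 33.3%, 57.7% and 61.4%. With the same steps of Mef2c it was 0.568%, 0.989%, 5.42%, 7.51% and 37.0%. Cells with more factor UMIs were also deeper. Cells without a Myod1 UMI had a median total of 8415 UMIs and cells with at least 4 one of 18060, and for Mef2c the same medians were 7585 and 18811. The parts of depth and of own-gene transcripts in the climb were not tested.

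**Figure D4:**
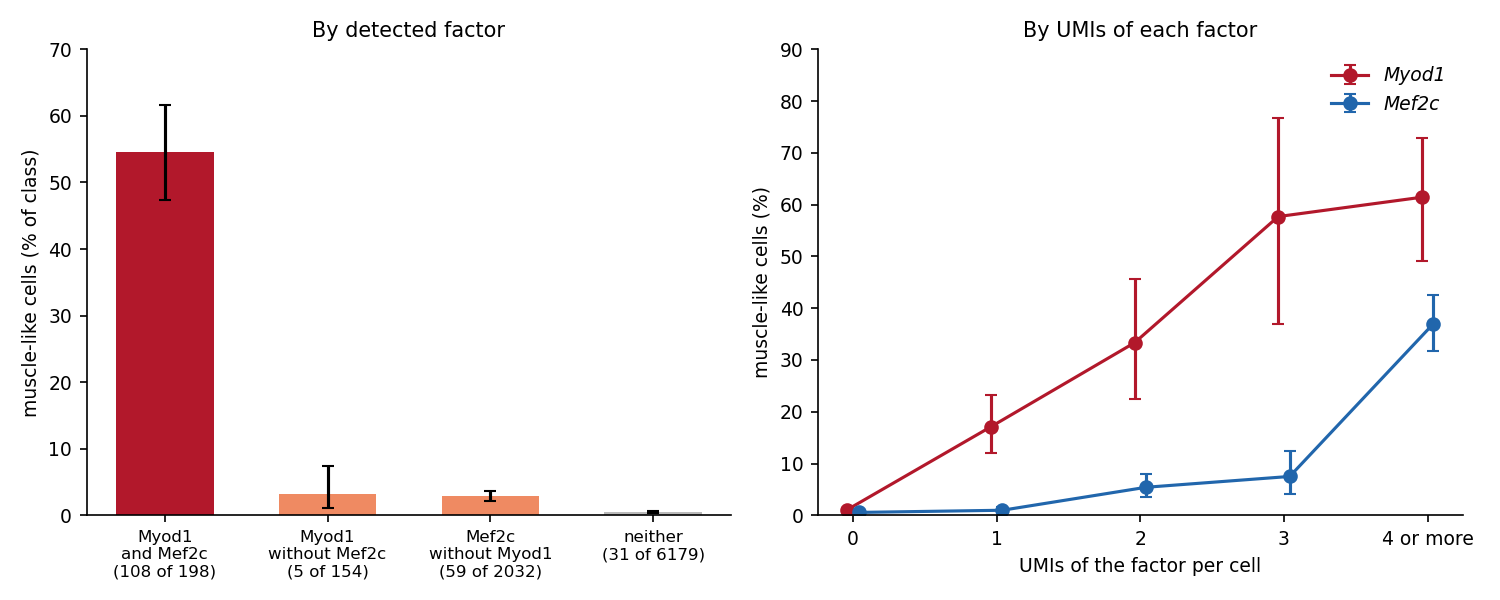
Percent of cells that were muscle-like, with exact 95% intervals, by which of Myod1 and Mef2c was detected (left) and by the number of UMIs of each factor in the cell (right). Cells with both factors reach 54.5%, cells with Myod1 alone 3.25%, with Mef2c alone 2.90% and with neither 0.502%.

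Among the 198 cells with both factors, the share was also counted with and without each further factor. For Hand2 it was 4 of 33 cells with Hand2 (12.1%, exact 95% interval 3.40% to 28.2%) and 63.0% of those without it (55.2% to 70.4%). The cells with Hand2 were deeper, with a median of 22507 UMIs against 14640 without it. Lbh was set beside it after the values were seen: 63 of 140 cells with Lbh were muscle-like (45.0%) and 45 of 58 without it (77.6%), with medians of 19571 and 10028 UMIs. Of 37 factors counted this way, 34 had a lower share in the cells with the factor, and for all 37 those cells were deeper. Hdac1 had 41.8% in cells with it and 70.5% in those without. No test was made of these differences, and the part of depth in them was not tested.

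Muscle-like cells were next compared with depth-matched cells that also had a Mef2c UMI, which holds that factor's detection in common but not its level. Of all cells with 1 Mef2c UMI, 13 of 1314 were muscle-like, against 118 of 319 with at least 4. The comparison used 150 muscle-like and 450 other cells of 25 libraries. Of 13174 genes tested, 4101 passed (31.1%), of which 1820 were higher (13.8%) and 2281 lower (17.3%), with a median log2 fold change over all genes of -0.12. Higher genes were 44.4% of the calls, and 33.7% without thinning of the sums. Without JD 2589 genes passed, without PZ47-PZ48 2611, and in the libraries with high Rps27a counts alone 1117. Both comparisons use the same muscle-like cells for the most part, so their values are set side by side and are not independent. Of 16 regulators 14 were higher, of 9 receptor genes 8, and of 29 shared sarcomere genes 28. All 20 matrix genes were lower, along with 16 of 20 S phase and 20 of 24 G2 and M phase genes.

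Chrng had 496 counts in muscle-like cells with Mef2c and 1 in the other Mef2c cells, a ratio of 1424 (254 to 56347). Myod1 averaged 226 ± 190 CPM in muscle-like cells with Mef2c and 6.51 ± 7.90 CPM in other Mef2c cells (4.80 ± 0.27, higher in 25 of 25 libraries). Hand2 averaged 4.53 ± 8.99 CPM in muscle-like cells with Mef2c and 21.5 ± 23.3 CPM in other Mef2c cells (-1.91 ± 0.47, lower in 18 of 25 libraries). The growth factor gene Hgf had no count in these muscle-like cells and 75 in the other Mef2c cells, at least 8.71-fold lower against a floor of 3 counts over the group. The leukocyte genes Ctss, Lcp1 and Mmp12 were among the lowest, with 2, 0 and 0 counts in muscle-like cells with Mef2c and 114, 45 and 437 in other Mef2c cells, and 6 of 12 macrophage genes were lower. Under DESeq2, Ctss (0.60) and Mmp12 (1.21) took the opposite sign without passing. Their part in the other low genes was not tested, but Mmp12 was lower in 3 libraries and at 0 on both sides in the rest.

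The muscle-like cells differed among themselves in how many rule genes they showed. The list of fast and embryonic sarcomere genes, which also holds slow ones, was summed without the rule genes. It stood at 454 CPM in cells with no rule gene, 556 with 1 to 2 and 775 with 3. From there it went to 1980 with 4, 5155 with 5 to 6, 20275 with 7 to 8 and 35522 with all 9. The receptor and synapse genes followed the same order, from 65.9 CPM with none to 107 with 3, 130 with 4 and 1876 with 9. Fibroblast matrix genes went the other way, with 29705 CPM at 0 rule genes, 29338 at 3, 22439 at 4, 21199 at 5 to 6, 11653 at 7 to 8 and 5735 at 9. Smooth muscle and stress fibre genes stood at 17114 CPM with none, 23116 with 4 and 6683 with 9. S phase genes were at 995 CPM with none, 814 with 4 and 306 with 9. The cells with 4 rule genes lay closer to the cells with 3 than to those with 9 on each of these lists on a linear scale. These values are pooled over cells and carry no test.

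**Figure D5:**
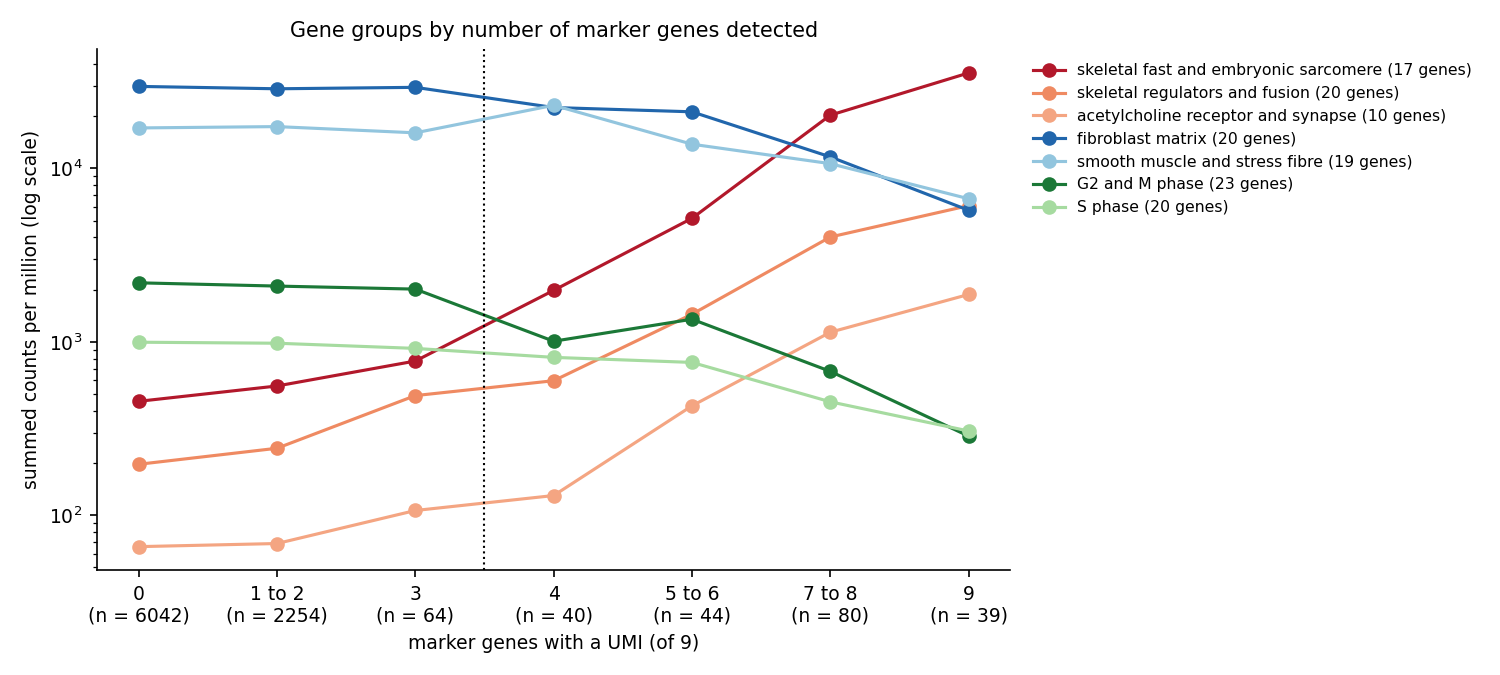
Summed level of 7 gene lists (CPM, log axis) in cells grouped by the number of detected rule genes, with the number of cells in each group below and a dotted line at the limit for muscle-like cells. The G2 and M phase list is shown without Ube2c, which overlaps Tnnc2. The fast and embryonic sarcomere list reaches 35522 CPM at 9 rule genes, while fibroblast matrix stands at 5735 CPM there and at 29705 CPM with none.

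Muscle-like cells also differed by the factor detected in them. The 108 with both Myod1 and Mef2c had a median of 8 rule genes and 31 had all 9, the 59 with Mef2c alone a median of 7 with 8 at all 9, and the 31 with neither a median of 4 with none at 9. The 5 cells with Myod1 alone had a median of 4. Median totals were 13869 UMIs with both factors, 12094 with Myod1 alone, 9163 with Mef2c alone and 9323 with neither, and detection of a rule gene depends on depth. Acta1 was at 5950 CPM in cells with both factors, 840 with Myod1 alone, 2629 with Mef2c alone and 724 with neither. Chrna1 was at 616, 205, 143 and 8.50 CPM in the same order, and Col1a1 at 999, 1493, 2571 and 2124 CPM. The last values come from few cells for Myod1 alone and for neither.

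The difference between muscle-like cells with and without a Myod1 UMI was tested in the 16 libraries with at least 2 of each, 75 with and 66 without. Of 10468 genes tested, 304 passed (2.9%), of which 202 were higher with Myod1 (1.93%) and 102 lower (0.974%), and the median log2 fold change was 0.04. Higher genes were 66.4% of the calls, and 78.6% without thinning of the sums. The cells with Myod1 had a median of 13783 UMIs and those without 8705. When the cells were paired by total within a library (55 of each), a comparison added after the data were seen, 161 genes passed, 102 higher and 59 lower. Without JD 51 genes passed, without PZ47-PZ48 84, and in the libraries with high Rps27a counts alone 2.

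Differentiation genes were higher in the cells with Myod1. Of 15 regulators and fusion genes 9 were higher and none was lower (median 1.42), of 15 sarcomere genes 11 and none (1.78), and of 9 receptor genes 4 and none (1.54). Chrna1 had a lowest value of 102, a median of 622 and a highest of 1472 CPM in cells with Myod1, against 0, 39.0 and 1078 CPM in cells without it. The ranges overlapped, and Chrna1 was higher in 14 of 16 libraries (2.81 ± 0.39; edgeR quasi-likelihood, adjusted p = 4.7e-06). The adult fast myosins Myh4 (3.79) and Myh1 (3.51), Sln (3.48), slow Myh7 (2.28), the calcium channel subunit Cacng1 (2.36), muscle phosphoglycerate mutase Pgam2 (2.41) and Hes6 (2.08) were higher. Mef2c itself averaged 1558 ± 1159 CPM in cells with Myod1 and 657 ± 664 CPM in cells without it (SD, n = 16 libraries each) and passed as well. In the libraries with high Rps27a counts alone, Pgam2 changed sign (-0.22).

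Genes of the fibroblast and smooth muscle lists were among the 102 lower ones. Of 20 matrix genes 6 were lower and none was higher (median -0.92), and of 19 smooth muscle genes 8 and none (-0.84). Ccnd2 averaged 373 ± 239 CPM in cells with Myod1 and 1298 ± 991 CPM in cells without it (SD, n = 16 libraries each; -1.69 ± 0.26). Myl9 (-1.61), Cald1 (-1.22), Col1a1 (-1.25), Bgn (biglycan, -1.29) and Igfbp7 (-1.31) were lower. In the libraries with high Rps27a counts alone, Cald1, Bgn and Igfbp7 had positive values (0.42, 0.25 and 0.47) that did not pass. The 5 lowest genes were in neither list. Sult1e1, an estrogen sulfotransferase gene, had no count in cells with Myod1 and 235 in cells without it, all 235 from 1 library. Itih5 had 0 and 20. Emcn (endomucin), an endothelial marker, had 11 counts in cells with Myod1 and 166 in cells without it, 78 of those from 1 library (-3.43 ± 0.70; under DESeq2 -2.28, adjusted p = 0.73). Ptprb, a phosphatase gene of endothelium, had 5 and 28 (-3.29 ± 0.76). The endothelial list summed to between 0 and 129 CPM in cells with Myod1 and between 0 and 1264 CPM in cells without it. Of its 10 genes 2 were tested and Emcn alone passed, while the defining genes Pecam1 and Cdh5 had no count in any of these cells. The part of endothelial RNA in the comparison was not tested. Mybpc3 was lower (-2.41 ± 0.68), with 24 counts in cells with Myod1 and 67 in cells without it, 39 of those 67 from 1 library. No S phase gene passed in either direction, and in G2 and M phase Ube2c, which overlaps Tnnc2, was the 1 gene that did. On simulated counts the test found 22 of 100 2-fold changes in this comparison, so smaller differences could be missed.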

How the data were processed

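The report uses 37 Drop-seq count tables, 1 per technical replicate. The authors deposited raw counts per gene and cell barcode. Per the submitters' processing notes the tools were bcl2fastq 2.17.1.14, STAR 2.5.3a, UMI-tools and featureCounts 1.5.3 on mm10. The role of each tool and the use of strand are not given in the sources used here, so genes with overlapping exons (60 of the 168 genes chosen by the naming rule, by GENCODE annotation) may share reads. Of 27998 gene rows, 353 had no symbol and stayed in the tests under their gene identifier where they reached the minimum of counts.

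From 8730 barcodes, 89 shallower copies of shared barcodes and 78 barcodes 1 base from a deeper one of the same library were removed, which left 8563 cells. No doublet caller was run. The results were recomputed without the 5% of cells with the most UMIs in each library.

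Counts of the cells of a kind were summed per library and tested with edgeR 4.0.16 in R 4.3.3. The quasi-likelihood fit had library as a block, TMM factors taken from sums thinned to the smaller total of each library, and genes with at least 20 counts over all sums. The 9 rule genes were left out of the tests. Each muscle-like cell had 3 depth-matched cells, nearest in log total and without replacement, in libraries with at least 3 muscle-like cells. DESeq2 1.42.0 was an alternative. Shares and per-cell values were tested with 100000 sign flips of library differences in scipy 1.17.1. The edgeR test was checked on simulated counts with the same dispersion for every gene. In the 3 comparisons it found 63, 47 and 22 of 100 2-fold changes, and 99, 96 and 92 of 100 4-fold changes. It made 1, 2 and 3 false calls.

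The members and gene lists were chosen with earlier results of these data known. The naming rule chose the rule genes and all factors of the pool, for the comparison with matched cells the 10 top and 10 bottom called genes by log2 fold change that moved alike in the 3 series and up to 4 genes per list by smallest p, and for each of the other comparisons 5 from either end and up to 2 per list. Further list members are named with their values where a list is described, and the Lbh and Hdac1 shares were chosen after their values were seen. Not every gene that the naming rule chose is described, and 1 of them is not reported here. Each library gives groups a shared source, and the block pairs them by that library.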

Additional observations from a re-analysis of the deposited data

Results flagged for a closer look

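For 1 of 13545 genes the difference between muscle-like and matched cells changed with the library series (edgeR quasi-likelihood interaction, adjusted over all genes), and 407 genes had an unadjusted p under 0.05. This was the adult fast myosin gene Myh1 (adjusted p = 0.0016), whose exons overlap the antisense gene Myhas. It stood at 74.1 CPM in muscle-like and 1.09 CPM in matched cells of JD, at 123 and 0.652 CPM in PZ47-PZ48, and at 96.1 and 49.5 CPM in PZ58.

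Among muscle-like cells, the difference between those with and without a Myod1 UMI changed with the series for 5 of 10468 genes. In PZ58 this comparison rests on 1 library. Pnmt (adjusted p = 2.7e-07) had 107 CPM with Myod1 and 0 without in JD, 90.9 and 1.28 in PZ47-PZ48, and 0 and 467 in PZ58. Tcap (adjusted p = 0.0097) had 247 and 5.55 CPM in JD, 133 and 29.4 in PZ47-PZ48, and 64.9 and 345 in PZ58. Mb (adjusted p = 0.015) had 764 CPM with Myod1 and 72.1 without in JD, 510 and 153 in PZ47-PZ48, and 143 and 954 in PZ58. Egln3 (adjusted p = 0.016) had 307 and 47.1 CPM in JD, 198 and 29.4 in PZ47-PZ48, and 39.0 and 507 in PZ58. Myh8 (adjusted p = 0.0079) had 636 CPM with Myod1 and 41.6 without in JD, 644 and 202 in PZ47-PZ48, and 130 and 142 in PZ58. For each of the 5 genes the cells without Myod1 in the PZ58 library were at least as high as those with it, and the part of that library was not tested.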

How the results depend on the processing

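Named genes were compared with their reported value in 4074 combinations of gene and setting. In 3826 the side of the threshold was kept, 210 lost the call and 21 gained it. In 17 the sign changed for a gene that passed in the main or the other setting. Sign changes of genes that passed in neither setting are counted among the 3826. In the comparison with matched cells such a change was seen for Saa3 (log2 fold change 1.04 under DESeq2, 0.39 with 1 matched cell per muscle-like cell). It was also seen for Ctss (1.02 under DESeq2) and Isl1 (-0.27 when 7 rule genes were required). With Mef2c detected on both sides, DESeq2 gave Mmp12 1.21, Cxcl10 1.06, Ctss 0.60 and Upk3b 0.30. Between muscle-like cells with and without Myod1, the libraries with high Rps27a counts gave Pnmt -1.92, Tcap -0.53, Obsl1 -0.15, Pgam2 -0.22, Mb -0.66, Bgn 0.25, Cald1 0.42 and Igfbp7 0.47, and calling Myod1 at 2 UMIs gave Id2 -0.14.

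Counts of calls against matched cells moved to 2409 without JD, 2488 without PZ47-PZ48 and 1113 in the high Rps27a libraries. Higher calls there were 565, and lower calls 1070, 1102 and 548, or 1196 with 1 matched cell per muscle-like cell. With Mef2c detected on both sides the calls were 2589, 2611 and 1117, and the higher calls 619 in the high Rps27a libraries. The lower calls were 1285, 1353 and 498, or 1299 with 1 matched cell and 1473 with at least 5 muscle-like cells per library. By Myod1 the calls were 51, 84 and 2 in the same subsets, 154 without the deepest 5% of cells, 514 with Myod1 at 2 UMIs and 161 when paired by total. The higher calls were 37, 71, 1, 100 and 102, and the lower calls 14, 13, 1, 54 and 59, or 159 under DESeq2 and 249 with Myod1 at 2 UMIs. The subsets have fewer libraries or cells, and the cause was not tested for any setting. That comparison could not be fitted in PZ58 alone.

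Without the replicate block for library, 3846 genes passed against matched cells (2088 higher), 4050 with Mef2c detected on both sides and 203 by Myod1 (135 higher).

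Both factors minus Myod1 alone was 82.1 points at 3000 UMIs (adjusted p = 0.0625, permutation, 5 libraries, the smallest that number allows) and 51.2 with factors called at 2 UMIs (adjusted p = 0.0938, permutation). Myod1 alone minus Mef2c alone was -8.34 at 3000 UMIs and -3.25 at 8000 UMIs, both past the threshold. Factors per cell without Myod1 and Mef2c differed by 0.977 at 2 UMIs and 0.646 with 5 rule genes, both past the threshold.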

Other observations

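Among the genes with the largest changes in muscle-like cells, several lay outside the muscle lists. Tceal7, which shares exons with Bex1, averaged 436 ± 403 CPM in muscle-like and 1.80 ± 4.64 CPM in matched cells (SD, n = 28 libraries each; log2 fold change 7.54 ± 0.30). Adora1 shares exons with the rule gene Mybph, so its reads may come from Mybph. On the lower side, the cytokeratins Krt8 (-2.45) and Krt18 (-1.91) and the acute-phase gene Saa3 (-2.15, but 1.04 under DESeq2) stood beside Eln and the interferon-induced genes.

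Among muscle-like cells with Myod1, Pnmt, Wipf3, Dusp2 and Ccdc88b had the largest increases next to Atp6v1c2. Wipf3 had 52 counts in cells with Myod1 and 2 in cells without it, a ratio of 22.0 (exact 95% counting interval 5.79 to 187). Dusp2 had 69 and 1, a ratio of 58.4 (10.1 to 2340). Ccdc88b had 71 and 0, at least 20.0-fold higher against a floor of 3 counts over the cells without Myod1, but it had counts in 4 of 16 libraries and 35 of the 71 came from 1 of them. Its call was lost when the cells were paired by total (edgeR quasi-likelihood, adjusted p = 0.064) and without the deepest 5% of cells (adjusted p = 0.1). The BMP response gene Id2 (1.48, but -0.14 when Myod1 was called at 2 UMIs) and the Notch target Hes1 (1.02) were also higher in cells with Myod1.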
